A study of Homo sapiens with 17 samples.

Results

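The genes described here are 33 p53 target genes, whose transcription the tumour suppressor p53 raises in stressed cells. They were taken by gene symbol from the 58278 gene identifiers of each count file, and no measured value entered the rule. The genes were chosen with earlier results of these data known. By role, 6 act in cell cycle arrest, 11 in cell death, 5 in DNA repair, 5 in metabolism and redox balance, and 6 in feedback on p53 or in other tasks. p53 is a transcription factor that is kept low by the ubiquitin ligase MDM2 and is stabilised by DNA damage and other stress. Its targets halt division, repair DNA, adjust metabolism or start apoptosis, and MDM2 is itself a target, which closes a feedback loop.

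RNA sequencing had been carried out on MOLM13, an established human acute myeloid leukaemia line with the MLL-AF9 fusion, from which every one of the 17 libraries came. In a first experiment, 3 libraries were made with a non-targeting CRISPR guide (NT), 3 with a CRISPR knockout of HOXA9 (HOXA9_KO) and 3 with a knockout of SAFB (SAFB_KO). In a second experiment, 4 libraries carried a non-targeting guide (NT_MEIS1ex) and 4 a knockout of MEIS1 (MEIS1_KO). MLL-fusion leukaemias depend on the homeobox proteins HOXA9 and MEIS1, and SAFB attaches to the nuclear matrix and binds both nucleic acids. The labels give no drug, time point or damaging agent for any group. Whether replicate libraries stem from separate cultures or from 1 clone is left unsaid, and p-values here therefore reflect library-to-library spread, which may be technical. The names of the count files carry the same guide label in all libraries of a knockout, and the sources used here do not give what the guides cut. Those of the second experiment also carry the word Puro, which the labels do not explain.

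Each library of the first experiment had 30737884 to 67842104 reads assigned to genes, and each of the second 23264176 to 33232459. Mitochondrial rRNA took 22.5% to 28.4% of them in NT, 31.9% to 35.5% in HOXA9_KO, 24.9% to 27.0% in SAFB_KO and at most 0.00941% in the second experiment. Reads outside annotated genes made up 16.4% to 18.1% in NT, 8.65% to 9.27% in HOXA9_KO and 10.6% to 12.7% in SAFB_KO. These shares moved with the groups, and their part in the results was not tested. RNA of the targeted gene was lower in each knockout, by 0.93 on the log2 scale for HOXA9, 0.89 for SAFB and 1.54 for MEIS1. MEIS1 RNA also lay at 16.1 to 17.7 CPM (the usual depth-scaled unit of read counts, with TMM library sizes within an experiment) in HOXA9_KO, against 48.4 to 50.4 CPM in NT. It lay at 10.3 to 12.8 CPM in MEIS1_KO, against 31.7 to 33.4 CPM in NT_MEIS1ex. All 8 myeloid leukaemia markers checked, CD33 and FLT3 among them, were detected in every group. Erythroid and megakaryocyte markers summed to 0.405 to 4.09 CPM, and the lymphoid list owed most of its 103 to 182 CPM to NCAM1.

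p53 binds a response element made of a pair of p53 half-sites, short palindromic motifs of 10 bases that may be separated by a few more. RefSeq windows of 300 bases around transcription starts (GRCh38.p14, 250 before and 50 after the start) were at hand for 26 members. A p53 half-site was found in the windows of 7 of these 26 genes, PLK2, SESN1, FAS, DDB2, RPS27L, AEN and FDXR. That is 26.9% of the members with a window, against 8.06% of all 27305 genes with one. A pair of half-sites with at most 2 mismatches in all and a gap of up to 13 bases was found in 5 members (19.2%, against 3.62% of all genes). The counts overlap, since a pair may hold an exact half-site, and both strands give the same matches because the motif is palindromic. The 5 matches are shown because they are the stretches near a start that resemble the element through which p53 is known to act. Capitals mark the half-sites, and lower-case letters the gap or, for MDM2, the flanks.
MDM2: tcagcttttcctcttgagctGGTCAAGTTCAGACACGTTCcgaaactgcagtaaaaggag
AEN: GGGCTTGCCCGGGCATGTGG
DDB2: GAACAAGCCCtGGGCATGTTT
FAS: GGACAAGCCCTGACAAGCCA
FDXR: GGGCGGGCCCgggcaggagcGGGCTTGCCC
The MDM2 stretch lies at chr12:68808903-68808962 on the plus strand, and its matching bases end 74 and 81 bases before 2 start sites inside the gene. The AEN match lies at chr15:88621306-88621325 on the plus strand. The DDB2 match lies at chr11:47214979-47214999 on the plus strand and ends 26 bases into the transcript. It had no mismatch, which held for 10 of the 35116 windows (0.0285%). The FAS match lies at chr10:88991309-88991328 on the plus strand, and the FDXR match at chr17:74872996-74873025 on the minus strand. A match describes letters in a window and is not evidence of binding in these cells.

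The p53 targets stood higher in HOXA9_KO and SAFB_KO than in NT, and few of them differed in MEIS1_KO. In HOXA9_KO, 28 of the 32 members that passed the filter on low counts rose and 2 fell, where 27.6% of all tested genes were called higher and 29.9% lower (57.5% either way). In SAFB_KO, 28 rose and 1 fell, where 20.2% of all tested genes were called higher and 15.3% lower (35.5% either way). In MEIS1_KO, 4 rose and 1 fell, where 4.97% and 3.84% of the tested genes were called higher and lower (8.81% either way). Called means an adjusted p under 0.05 from edgeR's quasi-likelihood test, with Benjamini-Hochberg adjustment over all tested genes. Changes are log2 fold changes with their standard errors.

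The median change of the tested members was 0.68 in HOXA9_KO, beside −0.07 for all genes, and 8 members rose at least 2-fold. It was 0.50 in SAFB_KO, beside −0.02 for all genes, with 2 members at least 2-fold higher. In MEIS1_KO it was 0.06, beside 0.0018 for all genes, and no member changed 2-fold. The HOXA9_KO and SAFB_KO comparisons share the NT libraries, so their values are given side by side and are not independent of each other. Groups did not overlap for 28 members that were higher and 2 that were lower in HOXA9_KO (29.1% and 33.5% of all tested genes). The same held for 30 and 1 in SAFB_KO (24.1% and 22.3%) and for 8 and 1 in MEIS1_KO (8.43% and 7.28%). In bulk RNA, a smaller share of cells with a transcript and less of it per cell cannot be told apart. Scaling to nuclear protein-coding counts, without TMM factors, moved the median of all genes to −0.32 in HOXA9_KO and −0.16 in SAFB_KO. It gave 25 members higher in each, with 4 and 2 lower. Under that scaling the members' medians were 0.43 and 0.36, 7 members were higher in MEIS1_KO, and 23.5% and 23.6% of all calls were higher, against 48.0% and 56.9%.

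**Figure D1:**
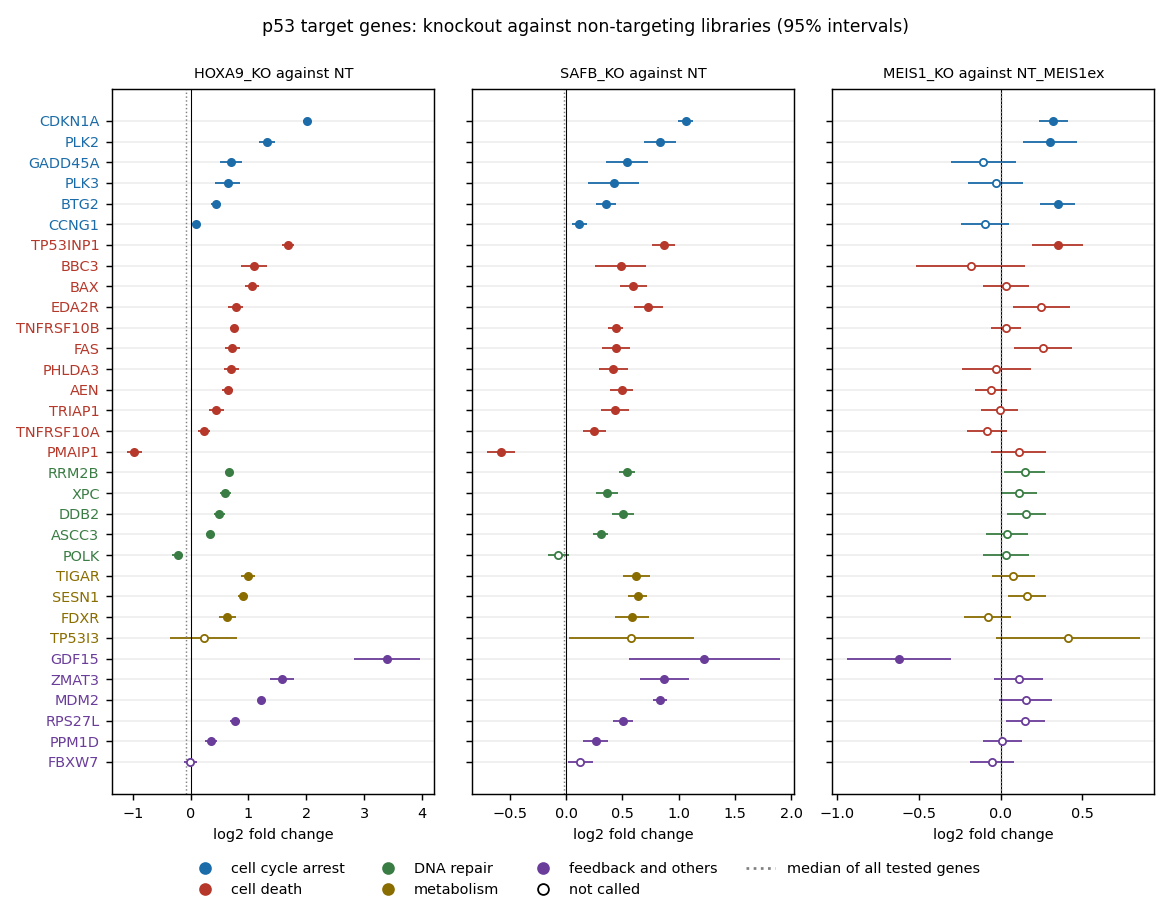
Log2 fold change (horizontal axis, own scale in each panel) of the 32 tested members in the 3 knockouts against the non-targeting libraries of the same experiment, with 95% intervals, coloured by role. Filled points were called at an adjusted p under 0.05, and the dotted line is the median of all tested genes. Nearly all points of the first and second panels lie right of 0, with PMAIP1 the far exception, while most points of the MEIS1_KO panel are open and close to 0.

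Genes of cell cycle arrest rose in both knockouts of the first experiment. All 6 were called higher in HOXA9_KO (median 0.67) and all 6 in SAFB_KO (median 0.48), while 3 of 6 were called higher in MEIS1_KO (median 0.14). CDKN1A (ENSG00000124762.13, chr6:36676460-36687339 in GRCh38, plus strand) encodes p21, the inhibitor of cyclin-dependent kinases. It lay at 211, 228 and 229 CPM in NT, at 939, 866 and 901 CPM in HOXA9_KO and at 465, 459 and 469.9 CPM in SAFB_KO. The 3 groups did not overlap, and HOXA9_KO stood highest. The rise was 2.02 ± 0.03 in HOXA9_KO (adjusted p = 6.48e-43) and 1.06 ± 0.03 in SAFB_KO (adjusted p = 1.49e-30). The controls of the MEIS1 experiment held 521, 503, 517 and 509 CPM of CDKN1A, and MEIS1_KO held 639, 623, 647 and 653 CPM. These groups did not overlap either, with a rise of 0.32 ± 0.04 (adjusted p = 0.000104). On the other strand, 4.79% of the exon sequence of CDKN1A is shared with the noncoding gene DINOL. The strand setting of the counting is not known, so reads of such partners may be mixed.

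PLK2, a polo-like kinase that slows the cycle under stress, lay at 11.6, 12.4 and 11.3 CPM in NT. It lay at 27.9, 31.1 and 29.3 CPM in HOXA9_KO and at 20.01, 20.2 and 22.6 CPM in SAFB_KO. No group overlapped another, and the rises were 1.33 ± 0.07 (adjusted p = 1.05e-22) and 0.83 ± 0.07 (adjusted p = 3.10e-14). In NT_MEIS1ex it lay at 20.1, 16.0, 20.2 and 17.9 CPM and in MEIS1_KO at 23.6, 22.6, 20.8 and 24.3 CPM. Every MEIS1_KO library was above every control, by little for the lowest, and the rise was 0.30 ± 0.08 (adjusted p = 0.0241). That call was lost without any one of MEIS1_KO replicates 1, 2 and 4 and NT_MEIS1ex replicates 2 and 4, with adjusted p from 0.0556 to 0.0814.

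BTG2, an antiproliferative cofactor of mRNA decay, rose in all 3 knockouts. It lay at 49.5, 51.3 and 50.2 CPM in NT, 68.8, 66.6 and 68.9 CPM in HOXA9_KO and 64.0, 64.2 and 64.8 CPM in SAFB_KO. In NT_MEIS1ex it lay at 64.8, 67.5, 69.3 and 65.0 CPM and in MEIS1_KO at 82.9, 82.1, 83.4 and 91.6 CPM. Knockout and control libraries did not overlap in any of these comparisons. The rises were 0.44 ± 0.04 in HOXA9_KO (adjusted p = 1.01e-12), 0.35 ± 0.04 in SAFB_KO (adjusted p = 1.41e-09) and 0.35 ± 0.05 in MEIS1_KO (adjusted p = 0.000338). BTG2 was 1 of the members for which the difference between the HOXA9 and MEIS1 effects was not called (0.13, 95% interval −0.0063 to 0.26). That difference turned to −0.19, and was called, when libraries were scaled to nuclear protein-coding counts.

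The growth arrest gene GADD45A lay at 6.83, 6.45 and 6.97 CPM in NT, 11.8, 10.02 and 11.1 CPM in HOXA9_KO and 9.40, 10.2 and 9.85 CPM in SAFB_KO. Both knockouts stood above NT and overlapped each other. The rises were 0.70 ± 0.09 and 0.54 ± 0.09 (adjusted p = 6.67e-09 and 4.22e-06), and the MEIS1_KO value of −0.11 was not called (95% interval −0.31 to 0.10). The stress kinase gene PLK3 rose by 0.64 ± 0.11 and 0.42 ± 0.11 and was not called in MEIS1_KO (−0.03, 95% interval −0.20 to 0.14). CCNG1, which encodes cyclin G1 and at 69.5 CPM per kilobase of exon stood next to CDKN1A (73.1) as the second most abundant member in NT, changed least of the arrest genes in HOXA9_KO and SAFB_KO. Its rises of 0.09 ± 0.03 and 0.12 ± 0.03 (adjusted p = 0.0106 and 0.00242) turned to −0.16 and −0.02 under scaling to nuclear protein-coding counts, and lost their calls when only genes of at least 2 CPM were tested. In MEIS1_KO its value of −0.10 was not called (adjusted p = 0.440), and without NT_MEIS1ex replicate 1, the lowest library for CCNG1 at 165 CPM, it was called lower (−0.18, adjusted p = 0.00779).

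**Figure D2:**
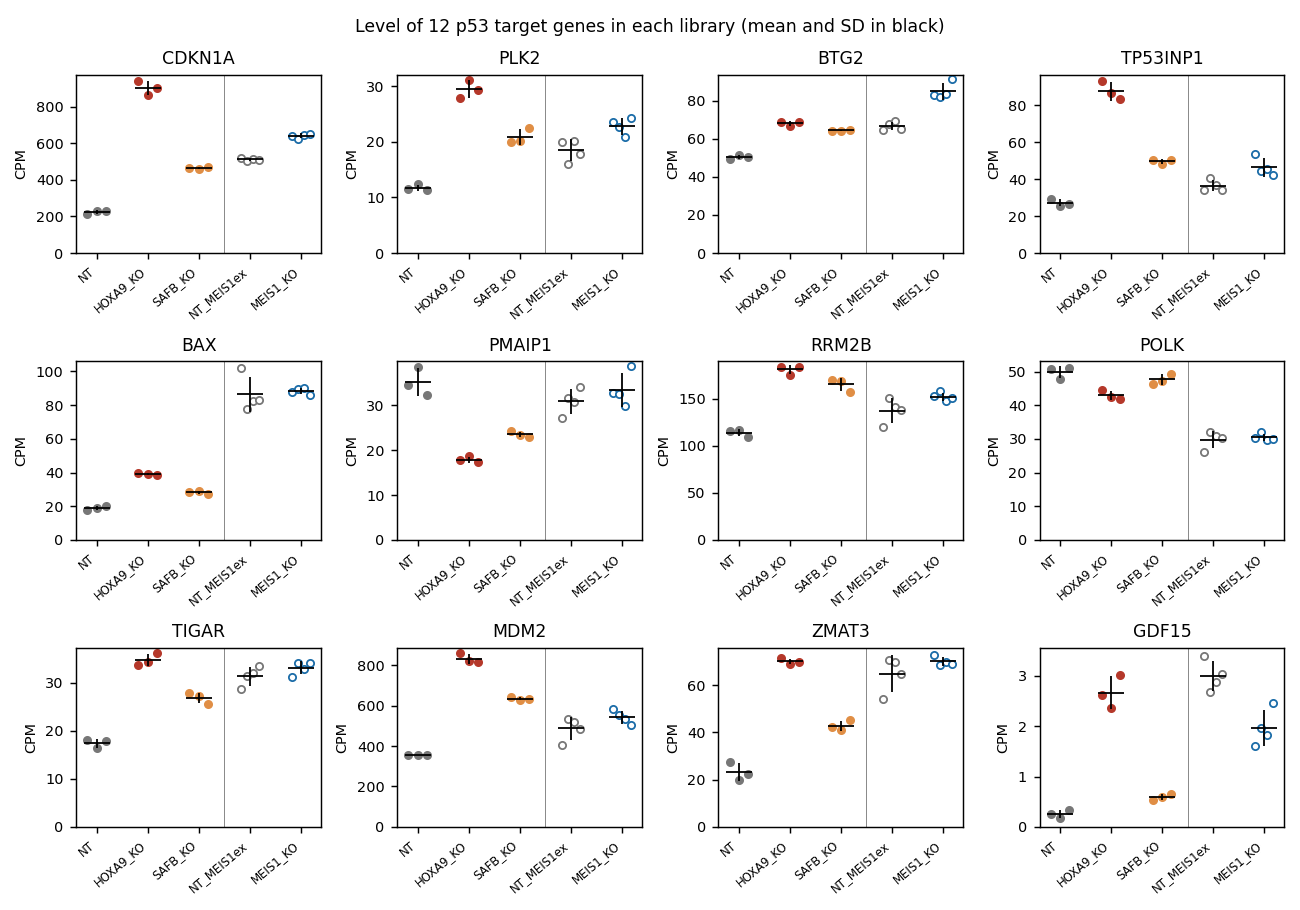
Level in CPM (vertical axis, from 0) of 12 members in each of the 17 libraries. Points are libraries, black bars the mean and its SD, and the vertical line separates the 2 experiments, which were scaled separately. HOXA9_KO stands highest of the first 3 groups for CDKN1A, PLK2, BTG2, TP53INP1, BAX, RRM2B, TIGAR, MDM2, ZMAT3 and GDF15, and lowest for PMAIP1 and POLK.

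Genes of cell death rose in HOXA9_KO and SAFB_KO with a single exception. Of 11, 10 were called higher and 1 lower in each (medians 0.72 and 0.44), and in MEIS1_KO 1 was called higher and none lower (median 0.03). TP53INP1, a stress protein that promotes autophagy and apoptosis, lay at 29.2, 25.7 and 26.4 CPM in NT, 93.1, 86.5 and 83.1 CPM in HOXA9_KO and 50.3, 48.2 and 50.2 CPM in SAFB_KO. All 3 groups were separate, and the rises were 1.69 ± 0.05 (adjusted p = 1.58e-32) and 0.87 ± 0.05 (adjusted p = 1.38e-19). In NT_MEIS1ex it lay at 34.1, 40.4, 36.9 and 34.3 CPM and in MEIS1_KO at 53.4, 44.4, 45.4 and 42.0 CPM. These groups did not overlap, and TP53INP1 was the death gene called in MEIS1_KO, with a rise of 0.35 ± 0.07 (adjusted p = 0.00658).

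BAX encodes the protein that permeabilises the outer mitochondrial membrane, and BBC3 encodes PUMA, a BH3-only protein that acts upstream of it. BAX lay at 17.6, 18.7 and 19.9 CPM in NT, 39.7, 39.2 and 38.3 CPM in HOXA9_KO and 28.5, 29.1 and 27.1 CPM in SAFB_KO. BBC3 lay at 4.02, 3.81 and 3.91 CPM in NT, 8.32, 8.62 and 8.30 CPM in HOXA9_KO and 5.41, 5.85 and 5.12 CPM in SAFB_KO. Neither gene had overlapping groups, and SAFB_KO lay between NT and HOXA9_KO for both. BAX rose by 1.06 ± 0.06 (adjusted p = 1.56e-21) and 0.60 ± 0.06 (adjusted p = 9.24e-12). BBC3 rose by 1.10 ± 0.11 (adjusted p = 2.72e-12) and 0.48 ± 0.11 (adjusted p = 0.000632). The NT_MEIS1ex libraries held 102, 77.7, 82.7 and 83.2 CPM of BAX, and those of MEIS1_KO 87.8, 89.6, 90.1 and 85.7 CPM in MEIS1_KO. The control library labelled replicate 1 stood above all others there, and also for BBC3 (28.4 CPM, against 17.3 to 19.5 CPM in the other controls). The MEIS1_KO changes of 0.03 for BAX (95% interval −0.11 to 0.18) and −0.18 for BBC3 (−0.52 to 0.15) were not called.

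PMAIP1 went the other way. It encodes NOXA, a BH3-only protein that antagonises MCL1, and it is also known to be induced by interferon. It lay at 34.6, 38.5 and 32.4 CPM in NT, 17.8, 18.7 and 17.4 CPM in HOXA9_KO and 24.2, 23.4 and 23.0 CPM in SAFB_KO. The 3 groups did not overlap, and NT stood highest. PMAIP1 fell by 0.97 ± 0.06 in HOXA9_KO (adjusted p = 1.16e-18) and by 0.58 ± 0.06 in SAFB_KO (adjusted p = 4.86e-11). In MEIS1_KO its change of 0.11 was not called (95% interval −0.06 to 0.28). Where 29.9% and 15.3% of all tested genes were called lower in HOXA9_KO and SAFB_KO, all 20 genes of an interferon-response list fell in both. They summed to 1722 to 2344 CPM in NT, 320.0 to 336 CPM in HOXA9_KO and 487 to 529.9 CPM in SAFB_KO. In NT_MEIS1ex they summed to 498 to 672 CPM and in MEIS1_KO to 706 to 995 CPM, with 3 of 20 called higher (2 to 6 without 1 library, 6 without MEIS1_KO replicate 1, 5 without NT_MEIS1ex replicate 1, and 14 with a replicate block). In MEIS1_KO 4.97% of all tested genes were called higher. The part of the interferon-response genes in the PMAIP1 result was not tested.

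The death receptors rose with the intracellular genes. FAS, the receptor of FAS ligand, lay at 17.6, 17.7 and 16.6 CPM in NT, 29.6, 26.8 and 29.4 CPM in HOXA9_KO and 22.3, 24.2 and 23.97 CPM in SAFB_KO, again without overlap. It rose by 0.72 ± 0.06 and 0.44 ± 0.06 (adjusted p = 3.20e-14 and 1.31e-07). The TRAIL receptor gene TNFRSF10B lay at 128, 134 and 132 CPM in NT, 220.4, 219 and 222 CPM in HOXA9_KO and 181, 176 and 178 CPM in SAFB_KO. Its rises of 0.75 ± 0.03 and 0.44 ± 0.03 (adjusted p = 1.30e-25 and 4.82e-16) were the most precise of the death genes. The other TRAIL receptor gene, TNFRSF10A, rose less, by 0.23 ± 0.05 and 0.25 ± 0.05 (adjusted p = 0.000180 and 0.000115). Under scaling to nuclear protein-coding counts its HOXA9_KO change became −0.02 and its SAFB_KO change 0.11, neither of them called (adjusted p = 0.767 and 0.0773), and 16.6% of its exon sequence overlaps genes of the other strand. EDA2R, the receptor of ectodysplasin A2, rose by 0.78 ± 0.07 and 0.73 ± 0.07.

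Of the remaining death genes, PHLDA3, an inhibitor of AKT, rose by 0.71 ± 0.06 and 0.42 ± 0.06. The nuclease gene AEN, whose start carries one of the matches shown, rose by 0.64 ± 0.05 and 0.49 ± 0.05. TRIAP1, a mitochondrial protein that restrains apoptosis, rose by 0.45 ± 0.06 and 0.44 ± 0.06. In MEIS1_KO none of these 7 was called. EDA2R and FAS came closest, at 0.25 and 0.26 (adjusted p = 0.0692 and 0.0675). FAS passed without MEIS1_KO replicate 4 (adjusted p = 0.0351) and EDA2R without NT_MEIS1ex replicate 1 (adjusted p = 0.0481). A same-strand gene shares 19.1% of the PHLDA3 exon sequence.

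DNA repair genes rose in HOXA9_KO and SAFB_KO, apart from POLK. Of 5, 4 were called higher and 1 lower in HOXA9_KO (median 0.49), 4 higher and none lower in SAFB_KO (median 0.36), and none in MEIS1_KO (median 0.11). RRM2B, the p53-inducible subunit of ribonucleotide reductase, lay at 116, 116 and 109.6 CPM in NT, 184, 175 and 184 CPM in HOXA9_KO and 170.3, 168 and 157 CPM in SAFB_KO. Again the groups were separate, and the rises were 0.67 ± 0.04 (adjusted p = 6.15e-22) and 0.54 ± 0.04 (adjusted p = 1.38e-17). DDB2, which recognises ultraviolet damage and has the match without mismatch, lay at 37.1, 38.7 and 37.7 CPM in NT, 53.8, 50.8 and 55.1 CPM in HOXA9_KO and 52.0, 55.1 and 53.8 CPM in SAFB_KO. Both knockouts stood above NT and overlapped each other, with rises of 0.49 ± 0.05 and 0.50 ± 0.05 (adjusted p = 8.58e-13 and 1.30e-12).

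XPC, which starts global nucleotide excision repair, lay at 33.8, 34.9 and 34.8 CPM in NT, 54.0, 49.5 and 53.4 CPM in HOXA9_KO and 46.0, 45.1 and 41.8 CPM in SAFB_KO. It rose by 0.60 ± 0.05 and 0.36 ± 0.05 (adjusted p = 6.62e-15 and 5.88e-08), and 30.4% of its exon sequence overlaps genes of the other strand. ASCC3, a helicase of alkylation repair, rose by 0.33 ± 0.03 and 0.31 ± 0.03. POLK, a translesion DNA polymerase, lay at 50.8, 47.9 and 51.1 CPM in NT, 44.4, 42.4 and 41.9 CPM in HOXA9_KO and 46.3, 47.3 and 49.4 CPM in SAFB_KO. HOXA9_KO stood below NT without overlap, while SAFB_KO overlapped NT. POLK fell by 0.22 ± 0.05 in HOXA9_KO (adjusted p = 0.000111), and its SAFB_KO value of −0.07 was not called (95% interval −0.16 to 0.03). The 5 genes lay between 0.03 and 0.16 in MEIS1_KO, and MEIS1_KO and control libraries did not overlap for DDB2 and XPC (adjusted p = 0.0953 and 0.200).

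Metabolic targets rose in HOXA9_KO and SAFB_KO, apart from the lowly expressed TP53I3 and SPATA18. Of the 4 that were tested, 3 were called higher in each (medians 0.77 and 0.60), and none was called in MEIS1_KO (median 0.12). TIGAR, a phosphatase that lowers glycolytic flux, lay at 17.96, 16.4 and 17.8 CPM in NT, 33.6, 34.2 and 36.1 CPM in HOXA9_KO and 27.8, 27.1 and 25.6 CPM in SAFB_KO. There was no overlap between groups, with rises of 0.996 ± 0.061 (adjusted p = 6.36e-20) and 0.62 ± 0.06 (adjusted p = 4.85e-12). A same-strand gene, AC008012.1, shares 42.6% of the TIGAR exon sequence, so its count is uncertain. SESN1, a sestrin that restrains mTORC1, lay at 49.4, 49.6 and 49.2 CPM in NT, 95.2, 89.2 and 93.8 CPM in HOXA9_KO and 73.9, 80.7 and 75.7 CPM in SAFB_KO. Its groups did not overlap, with rises of 0.91 ± 0.04 (adjusted p = 1.21e-24) and 0.64 ± 0.04 (adjusted p = 7.84e-18).

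FDXR, the mitochondrial ferredoxin reductase, lay at 11.9, 10.9 and 10.8 CPM in NT, 19.3, 16.9 and 16.4 CPM in HOXA9_KO and 16.6, 16.8 and 17.01 CPM in SAFB_KO. Both knockouts stood above NT and overlapped each other, with rises of 0.64 ± 0.08 and 0.58 ± 0.08 (adjusted p = 4.52e-10 and 1.16e-08). TP53I3, a quinone oxidoreductase, stayed between 0.553 and 1.26 CPM in all 17 libraries, on 22 to 60 reads. Its values of 0.23, 0.58 and 0.41 in the 3 knockouts were not called, and the first of them has a 95% interval from −0.36 to 0.81. SPATA18, a mediator of mitochondrial quality control, had no reads in 16 libraries and 2 reads in SAFB_KO replicate 1. A count of 0 allows up to 3 reads, which is 0.0442 to 0.129 CPM here, for counting error only. In MEIS1_KO the change of SESN1 was 0.16, with groups that did not overlap (adjusted p = 0.0807), and those of TIGAR and FDXR were 0.08 and −0.08.

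Genes that feed back on p53 rose as well. Of the 6 genes of feedback and other roles, 5 were called higher and none lower in HOXA9_KO (median 0.995) and in SAFB_KO (median 0.67), while in MEIS1_KO none was higher and 1 lower (median 0.06). MDM2 lay at 357, 356 and 355 CPM in NT, 859.8, 820.5 and 817 CPM in HOXA9_KO and 645, 628 and 634 CPM in SAFB_KO. The groups did not overlap, and NT varied very little. MDM2 rose by 1.22 ± 0.03 (adjusted p = 2.28e-36) and 0.84 ± 0.03 (adjusted p = 1.51e-28). NT_MEIS1ex had 407, 536, 521 and 487 CPM of MDM2, and MEIS1_KO had 582, 552, 532 and 503 CPM. Those groups overlapped, with the control labelled replicate 1 lowest, and the change of 0.15 was not called (95% interval −0.0071 to 0.32). PPM1D, the phosphatase WIP1 that switches off p53 signalling, rose by 0.35 ± 0.06 and 0.26 ± 0.05 (adjusted p = 2.98e-07 and 0.000119). Neither PPM1D call held under scaling to nuclear protein-coding counts (0.10 and 0.12, adjusted p = 0.102 and 0.0648).

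ZMAT3, an RNA-binding splicing regulator, lay at 27.3, 19.9 and 22.4 CPM in NT, 71.3, 68.9 and 69.7 CPM in HOXA9_KO and 42.2, 41.1 and 45.1 CPM in SAFB_KO. It rose by 1.58 ± 0.10 (adjusted p = 1.01e-07) and 0.87 ± 0.10 (adjusted p = 4.36e-05), without overlap. The ribosomal protein paralogue RPS27L lay at 45.9, 48.6 and 46.6 CPM in NT, 83.7, 76.5 and 79.7 CPM in HOXA9_KO and 68.9, 66.0 and 65.3 CPM in SAFB_KO. It rose by 0.77 ± 0.04 (adjusted p = 5.86e-21) and 0.50 ± 0.04 (adjusted p = 1.14e-13), also without overlap. FBXW7, which encodes the ubiquitin ligase subunit that recognises cyclin E and MYC, was not called in any knockout (−0.01, 0.12 and −0.05). It was called lower in HOXA9_KO under scaling to nuclear protein-coding counts (−0.26, adjusted p = 8.05e-05), and higher in SAFB_KO without NT replicate 3 (0.16, adjusted p = 0.0364).

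GDF15, a secreted stress cytokine, had the largest fold change of the members and the opposite direction in MEIS1_KO. It lay at 0.257, 0.178 and 0.326 CPM in NT, on 9 to 19 reads a library. HOXA9_KO had 2.62, 2.36 and 3.03 CPM, and SAFB_KO 0.529, 0.600 and 0.651 CPM. The 3 groups did not overlap, and the rises were 3.39 ± 0.28 (adjusted p = 7.76e-15) and 1.23 ± 0.33 (adjusted p = 0.00280). In the MEIS1 experiment the controls had 3.39, 2.68, 2.87 and 3.05 CPM and MEIS1_KO 1.61, 1.97, 1.82 and 2.45 CPM. Every MEIS1_KO library was below every control, with a fall of 0.62 ± 0.15 (adjusted p = 0.0149). That call was lost without MEIS1_KO replicate 1 or 3 (adjusted p = 0.0561 and 0.0581). All of these levels are low, and the range in HOXA9_KO overlapped that in NT_MEIS1ex, on values scaled separately.

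HOXA9_KO and SAFB_KO were also compared with each other, a test that does not use the NT libraries as a reference. Of the 32 tested members, 17 were higher and 2 lower in HOXA9_KO, where 20.1% and 20.5% of all tested genes were called higher and lower (40.6% either way). The median difference was 0.19, beside −0.02 for all genes. Groups did not overlap for 19 members higher and 4 lower (23.6% and 24.6% of all tested genes). Beside GDF15 (2.16 ± 0.27, adjusted p = 1.96e-09), the difference was 0.96 ± 0.03 for CDKN1A (adjusted p = 3.36e-29), 0.82 ± 0.05 for TP53INP1 (adjusted p = 1.17e-19) and 0.71 ± 0.09 for ZMAT3 (adjusted p = 0.000120). BBC3, PLK2, BAX, MDM2 and TIGAR followed with 0.62, 0.49, 0.47, 0.39 and 0.37. PMAIP1 was lower in HOXA9_KO by 0.39 ± 0.07 (adjusted p = 3.06e-06), and POLK by 0.15 ± 0.05 (adjusted p = 0.0105).

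By role, 7 of 11 death genes were higher and 1 lower in HOXA9_KO than in SAFB_KO. Of the arrest genes 2 of 6 were higher, of the repair genes 2 of 5 were higher and 1 lower, of the tested metabolic genes 2 of 4 were higher, and of the feedback and other genes 4 of 6 were higher. For several members the interval of the difference was narrow and included 0. It ran from −0.09 to 0.04 for CCNG1, from −0.11 to 0.08 for DDB2, from −0.04 to 0.09 for ASCC3, from −0.11 to 0.13 for TRIAP1 and from −0.08 to 0.18 for EDA2R. Under scaling to nuclear protein-coding counts 15 members were higher and 7 lower, ASCC3 among them (−0.09). Of all 18876 tested genes, 2449 were then called higher and 5845 lower. Leaving out HOXA9_KO replicate 3 or SAFB_KO replicate 3 removed the POLK call (adjusted p = 0.0581 and 0.124), and leaving out HOXA9_KO replicate 3 also that of AEN (adjusted p = 0.147).

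**Figure D3:**
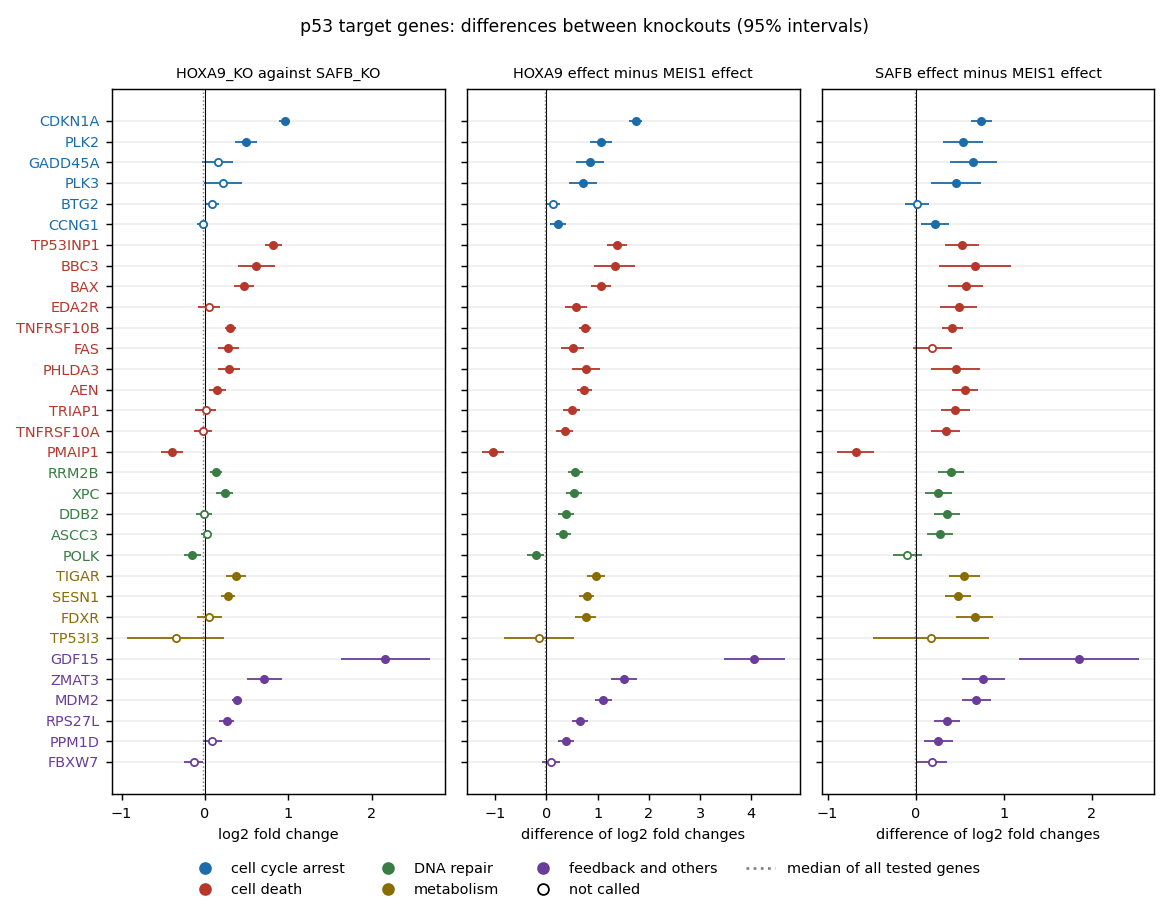
Difference in log2 fold change (horizontal axis, own scale in each panel) between the knockouts for the 32 tested members, with 95% intervals and colours by role. The first panel compares HOXA9_KO with SAFB_KO directly, and the others subtract the MEIS1_KO effect from the HOXA9_KO and SAFB_KO effects. Filled points were called at an adjusted p under 0.05. Most points lie right of 0 in every panel, and PMAIP1 lies left in all 3.

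The difference between experiments was tested as an interaction, each knockout taken against its own non-targeting libraries. The HOXA9 effect exceeded the MEIS1 effect for 27 of the 32 members and fell short of it for 2, PMAIP1 and POLK, where 24.5% and 19.7% of all tested genes were called each way (44.2% in all). The POLK call, at −0.21 ± 0.08 (adjusted p = 0.0356), was lost with RLE factors, without a filter and in DESeq2. The median difference was 0.68, beside −0.02 for all genes. It was largest for GDF15 (4.06 ± 0.29, adjusted p = 7.45e-14), CDKN1A (1.74 ± 0.06, adjusted p = 1.38e-22) and ZMAT3 (1.52 ± 0.12, adjusted p = 8.54e-10). The SAFB effect exceeded the MEIS1 effect for 26 members and fell short for 1, where 12.4% and 8.49% of all tested genes were called each way (20.9% in all). The median of that difference was 0.45, beside −0.0014 for all genes. For CDKN1A it was 0.75 ± 0.06 (adjusted p = 3.10e-11), for MDM2 0.69 ± 0.08 (adjusted p = 3.05e-07) and for PMAIP1 −0.68 ± 0.10 (adjusted p = 1.21e-05). Under scaling to nuclear protein-coding counts 20 and 16 members were called above the MEIS1 effect, while the median of all genes moved to −0.34 and −0.18. The share of all calls in which an effect exceeded the MEIS1 effect then went from 55.5% to 19.4% for HOXA9 and from 59.3% to 14.9% for SAFB. The experiments also differ in mitochondrial rRNA, and a difference between knockouts and one between experiments in how knockouts act cannot be told apart.

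Control levels of several members differed between the experiments. They were scaled separately on totals of unlike make-up, so they are only set side by side. Nuclear protein-coding genes took 67.5% to 73.6% of the assigned reads in NT and 94.2% to 94.5% in NT_MEIS1ex. CDKN1A lay at 211 to 229 CPM in NT and at 503 to 521 CPM in NT_MEIS1ex. BAX lay at 17.6 to 19.9 and 77.7 to 102 CPM, BBC3 at 3.81 to 4.02 and 17.3 to 28.4 CPM, and GDF15 at 0.178 to 0.326 and 2.68 to 3.39 CPM. ZMAT3 lay at 19.9 to 27.3 and 54.0 to 70.7 CPM. In CPM, these 5 genes stood higher in the controls of the second experiment. POLK (47.9 to 51.1 and 26.1 to 32.2 CPM) and FAS (16.6 to 17.7 and 12.7 to 14.6 CPM) stood lower there.

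MDM4, the partner of MDM2 that also restrains p53, fell. It lay at 181, 178 and 164 CPM in NT, 116, 124 and 121 CPM in HOXA9_KO and 147, 151 and 142 CPM in SAFB_KO. The 3 groups did not overlap, with falls of 0.53 ± 0.04 (adjusted p = 1.01e-17) and 0.25 ± 0.04 (adjusted p = 1.40e-07), and MDM4 was not called in MEIS1_KO (0.04). Of all tested genes, 27.6% were called higher and 29.9% lower in HOXA9_KO, 20.2% and 15.3% in SAFB_KO, and 4.97% and 3.84% in MEIS1_KO. Of 19 listed regulators of p53, 7 of 18 tested rose and 8 fell in HOXA9_KO (median 0.03), and 4 rose and 4 fell in SAFB_KO (median 0.01). In MEIS1_KO, none rose and 2 of 17 fell (median 0.02). Neither fall was called without MEIS1_KO replicate 3 or 4 or NT_MEIS1ex replicate 3, only 1 was without MEIS1_KO replicate 1 or 2 or NT_MEIS1ex replicate 2 or 4, and 2 regulators were called higher without NT_MEIS1ex replicate 1. HIPK2, a kinase that phosphorylates p53, rose by 1.60 ± 0.06 and 0.45 ± 0.06. RPL11, a ribosomal protein that binds MDM2, rose by 0.44 ± 0.03 and 0.36 ± 0.03. The checkpoint kinase gene CHEK1 fell by 1.02 ± 0.06, 0.21 ± 0.05 and, in MEIS1_KO, 0.25 ± 0.06 (adjusted p = 0.0213), a call lost without MEIS1_KO replicate 3 or 4 or NT_MEIS1ex replicate 3 or 4 (adjusted p = 0.0547 to 0.0882). Scaling to nuclear protein-coding counts gave 2 higher and 13 lower in HOXA9_KO and 3 higher and 9 lower in SAFB_KO. Of all 18876 tested genes, 2861 were then called higher and 9293 lower in HOXA9_KO, and 1712 and 5535 in SAFB_KO.

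A further list held 40 p53 targets outside the 33. The shares of all tested genes called higher and lower were 27.6% and 29.9% in HOXA9_KO, 20.2% and 15.3% in SAFB_KO, and 4.97% and 3.84% in MEIS1_KO. Of the 37 genes of the list that were tested, 27 rose and 4 fell in HOXA9_KO (median 0.35). In SAFB_KO 21 rose and 5 fell (median 0.26), while 5 rose and 1 fell in MEIS1_KO (median 0.05). Without SAFB_KO replicate 3, 2 were lower in SAFB_KO, and the fall in MEIS1_KO was lost without MEIS1_KO replicate 1 or 3 or NT_MEIS1ex replicate 3 or 4. The mitochondrial proline enzyme ALDH4A1 rose by 1.57 ± 0.07, 1.11 ± 0.07 and, in MEIS1_KO, 0.31 ± 0.06 (adjusted p = 1.64e-24, 1.13e-17 and 0.00396). NINJ1, which encodes the protein that ruptures the membrane of dying cells, rose by 1.65 ± 0.07 and 0.51 ± 0.07. The lysosomal autophagy gene DRAM1 rose by 1.68 ± 0.08 and 0.58 ± 0.09, and the tetraspanin gene CD82 by 1.49 ± 0.07 and 0.55 ± 0.07. CYFIP2, a regulator of actin assembly, rose by 0.95 ± 0.07 and 0.996 ± 0.068. In MEIS1_KO, TRIM22, TEP1 and the apoptosome gene APAF1 rose by 0.37 ± 0.05, 0.36 ± 0.06 and 0.30 ± 0.06. Under scaling to nuclear protein-coding counts the list had 17 higher and 10 lower in HOXA9_KO and 13 higher and 8 lower in SAFB_KO. That scaling called 2861 of all 18876 tested genes higher and 9293 lower in HOXA9_KO, and 1712 and 5535 in SAFB_KO.

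p21 lets the DREAM complex repress genes of replication and mitosis, and a list of 25 such genes was counted beside CDKN1A. Whether p21 or DREAM had a part in the changes of these genes was not tested. In HOXA9_KO 24 of 25 fell and none rose (median −0.84), where 29.9% of all tested genes were called lower. In SAFB_KO 20 fell and none rose, by less (median −0.18), and in MEIS1_KO 4 fell and none rose (median −0.07). The shares of all tested genes called lower there were 15.3% and 3.84%. The MEIS1_KO count ranged from 0 to 5 when 1 library was left out, with 0 without MEIS1_KO replicate 3 or NT_MEIS1ex replicate 4, 1 without MEIS1_KO replicate 1 or 2, and 2 without MEIS1_KO replicate 4 or NT_MEIS1ex replicate 3. CDK1, the kinase of mitotic entry, lay at 77.9, 81.9 and 77.6 CPM in NT, 34.5, 37.6 and 36.3 CPM in HOXA9_KO and 62.8, 63.3 and 62.5 CPM in SAFB_KO. It fell by 1.13 ± 0.05 (adjusted p = 3.32e-27) and 0.33 ± 0.04 (adjusted p = 1.17e-08), and was not called in MEIS1_KO (0.0025). The kinetochore gene CENPF fell by 1.07 ± 0.04 and 0.42 ± 0.04, and cyclin A2 (CCNA2) by 0.90 ± 0.04 and 0.18 ± 0.04. The mitotic kinase gene AURKB fell by 1.14 ± 0.07, 0.42 ± 0.06 and, in MEIS1_KO, 0.22 ± 0.07 (adjusted p = 0.0465). The MEIS1_KO call for AURKB was lost with a replicate block (adjusted p = 0.0792), with limma-voom, at a mean of 2 CPM or more, under nuclear protein-coding scaling and in leaving out any one library but NT_MEIS1ex replicate 2 (adjusted p = 0.0543 to 0.131).

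Markers of mature myeloid cells rose with the p53 targets in HOXA9_KO and SAFB_KO, and had the larger median change in each knockout. The markers' median was 2.84 in HOXA9_KO, 1.63 in SAFB_KO and 0.81 in MEIS1_KO. The p53 targets' median was 0.68, 0.50 and 0.06. Of all tested genes, 27.6%, 20.2% and 4.97% were called higher in HOXA9_KO, SAFB_KO and MEIS1_KO. All 11 tested of the 12 markers rose in HOXA9_KO and in SAFB_KO, and 9 of 10 in MEIS1_KO. Their summed level was 4479.9 to 4591 CPM in NT, 29676 to 32608 CPM in HOXA9_KO and 12998 to 14663 CPM in SAFB_KO. It was 3309.8 to 5001 CPM in NT_MEIS1ex and 7041 to 7432 CPM in MEIS1_KO. Most of each sum came from the marker LYZ. LYZ lay at 4099 to 4216 CPM in NT, 28045 to 30985 CPM in HOXA9_KO and 12090 to 13758 CPM in SAFB_KO. No marker of this list was at 0 in all libraries of a group, and their part in the changes of the p53 targets was not tested.

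**Figure D4:**
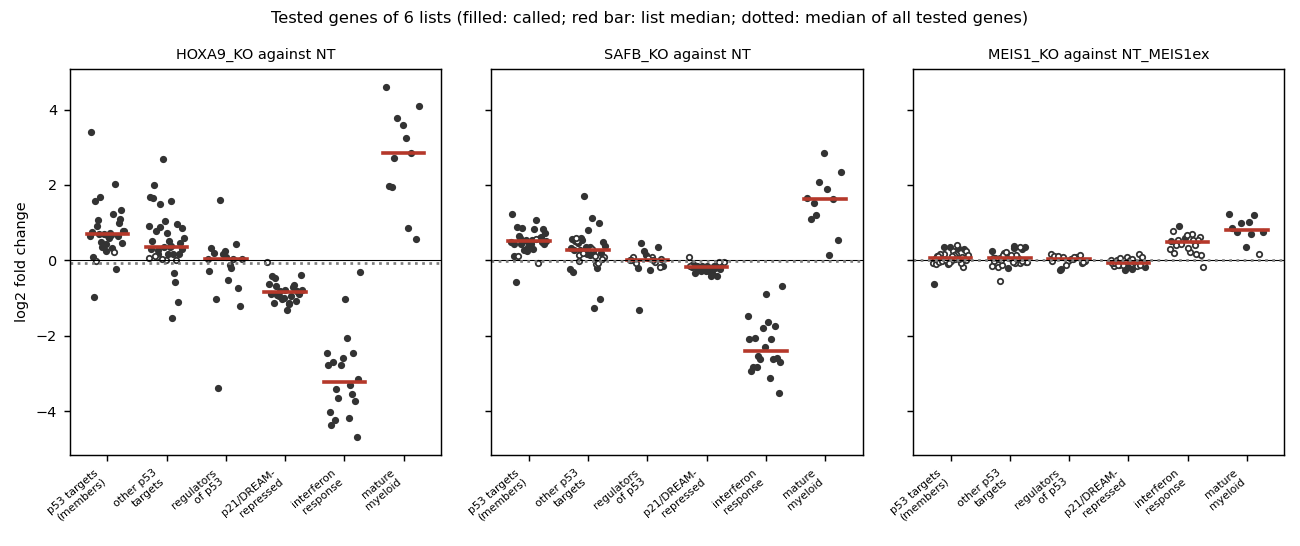
Log2 fold change (vertical axis, shared by the panels) of each tested gene of 6 lists in the 3 knockouts against their own non-targeting libraries. Filled points were called at an adjusted p under 0.05, red bars are list medians and the dotted line is the median of all tested genes. The medians of the members (0.68, 0.50 and 0.06) lie above those of the other p53 targets (0.35, 0.26 and 0.05), while the medians of the DREAM-repressed and interferon-response genes lie below 0 in HOXA9_KO and SAFB_KO.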

How the data were processed

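The authors deposited whole-number counts of reads per gene for each of the 17 libraries, per the files' values. Per the labels, total RNA was depleted of ribosomal RNA and made into directional libraries, and the submitters' processing notes list hg38 and the tools HTSeq 1.99.2, STAR 2.7.10a, bedtools and Trim Galore. The sources used here do not give the strand setting, the annotation release or the treatment of reads matching several places. Symbols were matched to 57437 of the 58278 identifiers, and coordinates and exon overlaps came from GENCODE 29 (GRCh38).

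Counts were fitted with edgeR 4.0.16 (R 4.3.3): filterByExpr (at least 10 counts in enough libraries, 15 in total), TMM scaling, and its quasi-likelihood F test with robust estimation. The 9 libraries of the first experiment, the 8 of the second and all 17 (for differences between effects) formed 3 fits with 18876, 15744 and 18836 genes. The SE is the change divided by the root of F. No libraries of a group agreed within sampling noise (chi-square per degree of freedom from 2.90 to 30.6). Lines for reads outside genes or in several genes stayed out of library sizes (8.65% to 18.1% and 6.09% to 7.96% in the first experiment, 6.07% to 9.15% and 9.92% to 12.2% in the second).

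The members and lists were chosen with earlier results of these data known. Every member is named, with values by library for up to 4 a class by size of change and p. From each list of regulators, other targets and DREAM-repressed genes, genes were named among the 4 smallest p of each comparison, with MDM4. 1 gene of the regulator list is not reported here and was left out of that list. Alternatives were DESeq2 1.42.0, limma-voom (limma 3.58.1), RLE factors, scaling to nuclear protein-coding counts, dropping the filter, keeping genes with a mean of 2 CPM or more, a replicate term, fitting only the groups compared and leaving out each library. The fits were tested on simulated counts with 200 changed genes. Of changes of 1 on the log2 scale, 72% were recovered for HOXA9_KO over 18297 genes, 73% for SAFB_KO over 18333 and 85% for MEIS1_KO over 15394. Of changes of 0.5, 47%, 51% and 70% were recovered. Unchanged genes falsely called numbered 15 for HOXA9_KO, 14 for SAFB_KO and 16 for MEIS1_KO. In the data, 10847, 6698 and 1387 genes were called in these knockouts, so the simulation does not cover such broad change.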

Additional observations from a re-analysis of the deposited data

Results flagged for a closer look

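In groups of 4 libraries, the gap between an extreme library and its nearest neighbour was compared with the range of the group (Dixon's test at the 95% level). Of 111 sets of a gene and a group, 4 passed, all in MEIS1_KO, and chance gives about 1 in 20. BTG2 stood at 91.6 CPM in replicate 4, against 82.1 to 83.4 CPM in the others. DDB2 stood at 48.7 CPM in replicate 3, against 44.1 to 44.4 CPM. ALDH4A1 stood at 31.5 CPM in replicate 1, against 35.5 to 36.1 CPM. TRIM22 stood at 149.6 CPM in replicate 2, against 155 to 156 CPM.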

How the results depend on the processing

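Calls held under every alternative in which the member was tested for 28 of 32 members in HOXA9_KO, 27 in SAFB_KO and 25 in MEIS1_KO. The same held for 23 between HOXA9_KO and SAFB_KO, and for 22 and 21 for the differences of the HOXA9 and SAFB effects from the MEIS1 effect. TP53I3 and, in the first experiment, GDF15 had a mean under 2 CPM and were not tested in the alternative with that limit. Scaling to nuclear protein-coding counts gave 4 members lower in HOXA9_KO, 2 lower in SAFB_KO, 7 higher in MEIS1_KO and 7 lower between the knockouts, and moved the share of all MEIS1_KO calls that were higher from 56.5% to 68.5%. It gave 4 below the MEIS1 effect for HOXA9, and 16 above and 2 below it for SAFB. It reversed CCNG1 (−0.16), TNFRSF10A (−0.0186), RPL5 (−0.0871), ATM (−0.22), TEP1 (−0.0867) and APAF1 (−0.0915) in HOXA9_KO, CCNG1 (−0.0199) and TEP1 (−0.0061) in SAFB_KO, and ASCC3 (−0.0899), RPL11 (−0.0359) and ATM (−0.0785) between the knockouts. For the HOXA9 and MEIS1 difference it reversed BTG2 (−0.19), CCNG1 (−0.0889), FBXW7 (−0.24) and RPL5 (−0.0018). This scaling leaves mitochondrial rRNA and noncoding genes out of the library totals and also applies no TMM factors. Which of these changes moved the calls was not tested. A mean of at least 2 CPM gave 2 lower in SAFB_KO. RLE factors, no filter and DESeq2 each gave 1 below the MEIS1 effect for HOXA9, POLK losing its call. Leaving out 1 library gave 0 to 2 lower in MEIS1_KO (0 without MEIS1_KO replicate 1 or 3, 2 without NT_MEIS1ex replicate 1), 1 to 3 lower between the knockouts and 1 to 2 below the MEIS1 effect for HOXA9. The cause of these shifts was not tested either. Replicate numbers showed no general pairing of the libraries over genes with a mean of 2 CPM or more. Same-numbered libraries correlated in their deviations from the group mean by −0.05 to 0.09 in the first experiment and −0.30 to 0.11 in the second. Single genes can differ from this. OAS2, of the interferon-response list, lay at 51.6, 66.8, 76.4 and 82.0 CPM in NT_MEIS1ex replicates 1 to 4. In MEIS1_KO it lay at 87.3, 79.8, 107 and 126 CPM in the same order. With a replicate block, 28 members were higher and 2 lower in HOXA9_KO, 28 and 1 in SAFB_KO, 4 and 1 in MEIS1_KO, 17 and 2 between the knockouts, 27 and 2 for the HOXA9 difference and 25 and 1 for the SAFB difference, PHLDA3 losing its call (0.44, adjusted p = 0.0532).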

Other observations

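Decoy receptors of TRAIL, the relatives of p53 encoded by TP73 and TP63, and SESN2 were looked at after their values were seen. TNFRSF10C, a decoy receptor without a death domain, lay at 0.514, 0.474 and 0.434 CPM in NT, 3.02, 2.67 and 3.57 CPM in HOXA9_KO and 1.40, 1.48 and 1.84 CPM in SAFB_KO. It rose by 2.69 ± 0.23 and 1.71 ± 0.24 (adjusted p = 1.67e-14 and 1.11e-07), without overlap between the 3 groups. The other decoy, TNFRSF10D, rose by 0.90 ± 0.05 and 0.34 ± 0.05 (adjusted p = 6.59e-23 and 4.77e-08). Neither was called in MEIS1_KO (0.36 and 0.22).

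TP73, which encodes the p53 relative p73, fell from 13.04, 13.6 and 13.7 CPM in NT to 5.87, 5.82 and 5.73 CPM in HOXA9_KO. The fall was 1.21 ± 0.09 (adjusted p = 1.51e-16), and TP73 was not called in SAFB_KO (0.03). In MEIS1_KO it fell by 0.22 ± 0.07 (adjusted p = 0.0462), a call lost with a replicate block (adjusted p = 0.0790), with limma-voom, at a mean of 2 CPM or more, under nuclear protein-coding scaling, and without any one of the MEIS1_KO libraries or NT_MEIS1ex replicates 2 and 3 (adjusted p = 0.0530 to 0.124). TP63 lay at 0.336 to 0.760 CPM in NT, 0 to 0.0811 CPM in HOXA9_KO and 0.198 to 0.249 CPM in SAFB_KO, levels of few reads in groups that did not overlap. The stress gene SESN2, a relative of SESN1, rose by 0.31 ± 0.06 in HOXA9_KO (adjusted p = 1.45e-05) and fell by 0.32 ± 0.06 in SAFB_KO (adjusted p = 3.15e-05) and by 0.20 ± 0.06 in MEIS1_KO (adjusted p = 0.0307). The MEIS1_KO call for SESN2 was lost without MEIS1_KO replicate 1 or 3 or NT_MEIS1ex replicate 3 or 4.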
